A study of Mus musculus with 6 samples.

Results

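Potassium channel genes were examined in the cochlea of mouse embryos at embryonic day 18.5, as all genes whose symbol begins with Kcn and a further letter, with 1 probe set per gene, the brightest on average over the 6 arrays. This gave 62 genes, which 90 probe sets cover, of 12393 genes on the array with a probe set annotated to a single gene. The members were 20 voltage-gated channels, 15 auxiliary subunits, 13 inward rectifiers, 8 leak channels of the K2P family and 6 calcium-activated or Slo channels. Igf1 null (-/-) embryos were compared with wild type (+/+) embryos, both from matings of heterozygous mice on a C57BL/6J background. Igf1 codes for the secreted insulin-like growth factor 1, and which part of the gene is disrupted is not given in the sources used here. Each of the 3 samples per genotype was an independent RNA pool from 4 cochleae of 2 embryos, dissected with the otic capsule but free of vestibular tissue, and each was read on 1 Affymetrix array. Because whole cochleae were pooled, fewer cells of a type and less RNA per cell cannot be told apart in any value below.

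Potassium channels set the resting potential of cells and return them to it after excitation, and the auxiliary subunits change how the pores open or where they sit in the cell. In the cochlea they also carry the potassium that drives hearing. Potassium is secreted into the endolymph by marginal cells of the stria vascularis through channels of Kcnq1 with Kcne1, the endocochlear potential depends on Kcnj10 in strial intermediate cells, and potassium leaves hair cells through channels that include the large-conductance channel Kcnma1. Spiral ganglion neurons fire at high rates with the help of Kcna and Kcnc channels.

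All levels are log2 signals after quantile normalization, and differences are Igf1 null minus wild type with the standard error (SE) of limma's fit over all genes, with n = 3 arrays per genotype throughout. The array medians of the deposited values ran from 5.61 to 6.37 in Igf1 null and from 6.09 to 6.30 in wild type, and precision is limited throughout by how few arrays there are. Igf1 signal was lower on each Igf1 null array than on each wild type array at all 3 of its probe sets. Igf1 showed its widest gap where the probe set averaged 7.06 ± 0.12 in Igf1 null and 8.05 ± 0.11 in wild type (SD, n = 3). At the brightest probe set the averages were 10.59 ± 0.13 and 11.05 ± 0.08, a ratio of 0.728, and at the dimmest 6.93 ± 0.22 and 7.47 ± 0.09. High Igf1 signal thus remained on the Igf1 null arrays. From the brightest probe set down, the adjusted p-values of limma over all probe sets were 0.887, 0.599 and 0.887. The source field of the Igf1 null samples shows +/+, so genotypes rest on the titles and descriptions, and it gives 1 wild type pool a slightly later age. Against the labelled tissue, 8 of 9 supporting cell markers, 7 of 14 hair cell markers, 5 of 7 strial marginal cell markers, 7 of 8 intermediate cell and melanocyte markers and 4 of 5 spiral ligament markers were above the detection line defined next. Skeletal muscle markers (10 of 10) and vestibular markers (3 of 3) were above it as well. The vestibular list mean was higher on each Igf1 null array, from 7.31 to 7.72, than on each wild type array, from 6.98 to 7.20. By sign 2 of its 3 genes were higher and 1 lower, with 0 past the threshold. In both higher genes each Igf1 null array was above each wild type array, where the background was 5.58% of all genes. The part of vestibular tissue in the values below was not tested.

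A smaller share of the potassium channel genes than of all genes was detected. A gene counted as detected when its mean over the 6 arrays lay above 4.15, the 95th percentile of 91 genes that cochlear tissue should not express, such as olfactory receptor and spermatid genes. Of the 62 members 26 were above this line, 41.9%, against a background of 74.1% of all 12393 genes. The median level was 3.73 among the members and 6.64 among all genes, which compares where the readings lie on the array's scale and not transcript numbers. The line is a cut through a continuous range, and 12 members were above the highest of these 91 genes (Uox, 5.20) and 2, Kcnk1 and Kcnmb4, above the median of all genes. Kcnj3 at 4.30 was the member just inside it, and Kcnn2 at 4.14 was the one just outside. With the same percentile taken on each array, from 4.04 to 4.48, all 6 arrays were above the line for 21 members, and no array was above it for 24.

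**Figure D1:**
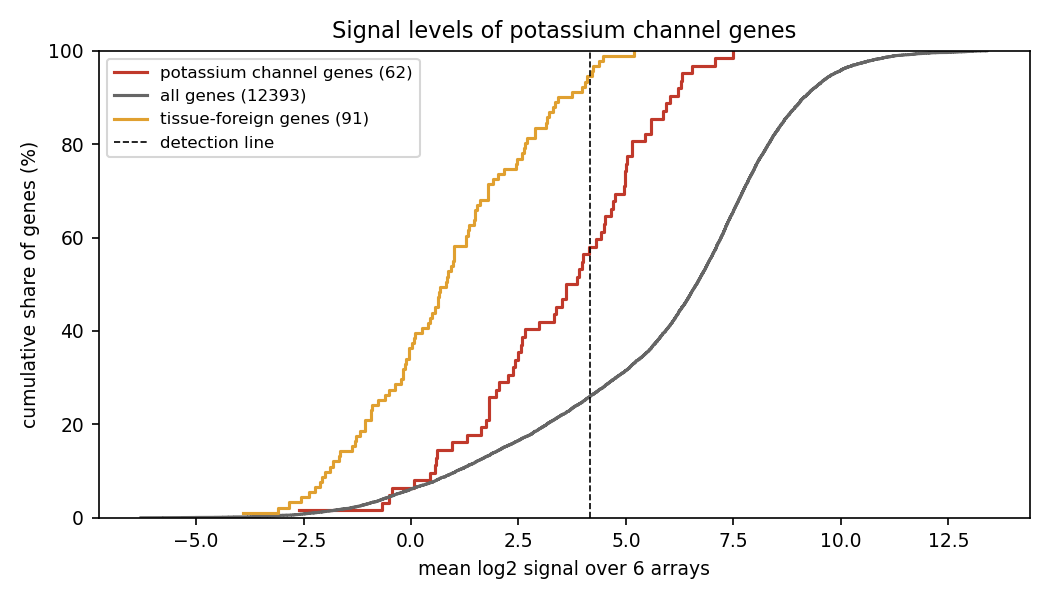
Cumulative share of genes (%) against mean log2 signal over 6 arrays for the 62 potassium channel genes, all 12393 genes and the 91 tissue-foreign genes, with the detection line at 4.15 dashed. To the right of about 1 the curve of the potassium channel genes lies between those of the tissue-foreign genes (median 0.81) and of all genes (median 6.64), and at the lowest signals it meets that of all genes.

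Neither subunit of the secretory channel was above the line. Kcnq1, the pore subunit, read 4.06, 3.25 and 2.53 in Igf1 null and 3.19, 4.11 and 4.52 in wild type. Kcne1, its auxiliary subunit, read 2.00, 3.09 and 2.45 in Igf1 null and 3.23, 2.23 and 2.32 in wild type. For both genes the ranges of the genotypes overlapped. Kcnq1 was above the line on 2 of 6 arrays and Kcne1 on 0, each at its only probe set, so these readings could not be told from those of tissue-foreign genes and do not show that the transcripts were absent. The Kcnq1 difference of -0.66 ± 0.52 and the Kcne1 difference of -0.08 ± 0.40 are between values at that level. Kcnj16, Kcna10 and Kcnj13, further channels with known roles in cochlea or other secretory tissue, had no single-gene probe set named here and were not analysed.

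Among the voltage-gated channels 8 of 20 were above the line. They were Kcna5, Kcna6 and Kcna7 of the Shaker family, Kcnc1 of the Shaw family that serves rapid firing, Kcnd1 and Kcnd2 of the A-type Shal family, and Kcnh2 and Kcnh3 of the ether-a-go-go group, of which Kcnh2 carries the rapid delayed rectifier current of the heart. Kcna5 read 5.27, 5.51 and 5.18 in Igf1 null and 4.38, 5.41 and 5.05 in wild type. These overlapped, with a difference of 0.37 ± 0.29. The other 7 differed by -0.32 (Kcna6) to -0.08 (Kcnd2), all with overlapping arrays. Kcna1, Kcna2, Kcna3, Kcna4, Kcnc4, Kcnd3, Kcnh1, Kcnh7, Kcnq1, Kcnq5, Kcns1 and Kcns2 were not above the line. By sign 5 of the 20 were higher and 15 lower in Igf1 null, with a median of -0.19.

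Auxiliary subunits had 9 of 15 above the line. The cytoplasmic beta subunits Kcnab1 and Kcnab2, the single-span subunits Kcne1l, Kcne3 and Kcne4, the calcium-binding partners of Kcnd channels Kcnip1 and Kcnip4, and the beta subunits of Kcnma1 channels Kcnmb2 and Kcnmb4 were detected. Kcnmb4 read 6.95, 7.19 and 6.91 in Igf1 null and 6.94, 7.40 and 7.04 in wild type, with a difference of -0.11 ± 0.16. Kcne1, Kcne2, Kcnip2, Kcnip3, Kcnab3 and Kcnmb1 were not above the line. In Igf1 null 6 of the 15 were higher and 9 lower by sign, with a median of -0.11.

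Inward rectifiers had 4 of 13 above the line, namely Kcnj3 and Kcnj6, which form G protein-gated channels, Kcnj8, the pore of vascular ATP-sensitive channels, and Kcnj10. Kcnj10 read 5.82, 5.97 and 5.78 in Igf1 null and 5.63, 6.29 and 6.04 in wild type. The Igf1 null arrays lay within the wild type range, and the difference was -0.13 ± 0.19 with a 95% confidence interval from -0.61 to 0.35. Kcnj8 read 6.25, 5.96 and 6.04 in Igf1 null and 6.08, 6.40 and 6.53 in wild type. The genotypes overlapped, and the difference was -0.25 ± 0.16, while Abcc9, the regulatory subunit that pairs with Kcnj8, differed by -0.32 ± 0.19. Markers of pericytes and smooth muscle, the cells in which this channel is best known, were lower by sign in 7 of 7 genes, with a list mean from 8.26 to 8.70 in Igf1 null and from 8.46 to 8.74 in wild type, and their part in the Kcnj8 value was not tested. Kcnj3 read 3.84, 4.67 and 3.26 in Igf1 null and 4.47, 4.86 and 4.72 in wild type. Igf1 null replicate 2 lay within the wild type range and the other Igf1 null arrays lay below it, with a difference of -0.76 ± 0.38. Kcnj1, Kcnj2, Kcnj4, Kcnj5, Kcnj9, Kcnj11, Kcnj12, Kcnj14 and Kcnj15 were above the line on no array. Kcnj12, a strong rectifier of muscle, read -1.49, 1.95 and 1.53 in Igf1 null and 2.17, 2.70 and 0.97 in wild type, a spread among replicates wider than its difference of -1.29 ± 1.04. By sign 2 of the 13 were higher and 11 lower in Igf1 null, with a median of -0.36, and 9 of the 13 were under the line.

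Leak channels had 3 of 8 above the line. Kcnk1 read 7.57, 7.32 and 7.69 in Igf1 null and 7.55, 7.30 and 7.46 in wild type. The genotypes overlapped, and the difference of 0.09 ± 0.14 had the smallest standard error of the members, with an interval from -0.27 to 0.45. Kcnk2, a channel opened by stretch of the membrane, read 6.07, 6.10 and 5.70 in Igf1 null and 5.82, 6.42 and 6.03 in wild type. Kcnk5, a channel opened by alkaline pH, read 4.31, 5.32 and 5.16 in Igf1 null and 4.77, 5.49 and 4.84 in wild type. Both overlapped between genotypes, with differences of -0.13 ± 0.21 and -0.10 ± 0.35. Kcnk3, Kcnk4, Kcnk7, Kcnk10 and Kcnk13 were not above the line. In Igf1 null 3 of the 8 were higher and 5 lower by sign, with a median of -0.12.

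Calcium-activated and Slo channels had 2 of 6 above the line, Kcnma1 and Kcnn4. Kcnma1 read 5.02, 5.36 and 4.73 in Igf1 null and 4.37, 5.57 and 4.63 in wild type. All Igf1 null arrays lay within the wild type range, with a difference of 0.18 ± 0.36. Kcnn4, the intermediate-conductance channel, read 5.21, 5.01 and 4.69 in Igf1 null and 5.05, 5.41 and 4.47 in wild type, which also overlapped. Kcnn2, the small-conductance channel that follows efferent input in hair cells, read 3.44, 5.19 and 3.77 in Igf1 null and 3.29, 5.03 and 4.11 in wild type, so replicate 2 of each genotype was above the line and the other arrays were not. Kcnn1, Kcnn3 and Kcnu1 were not above it. By sign 4 of the 6 were higher and 2 lower in Igf1 null, with a median of 0.21.

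**Figure D2:**
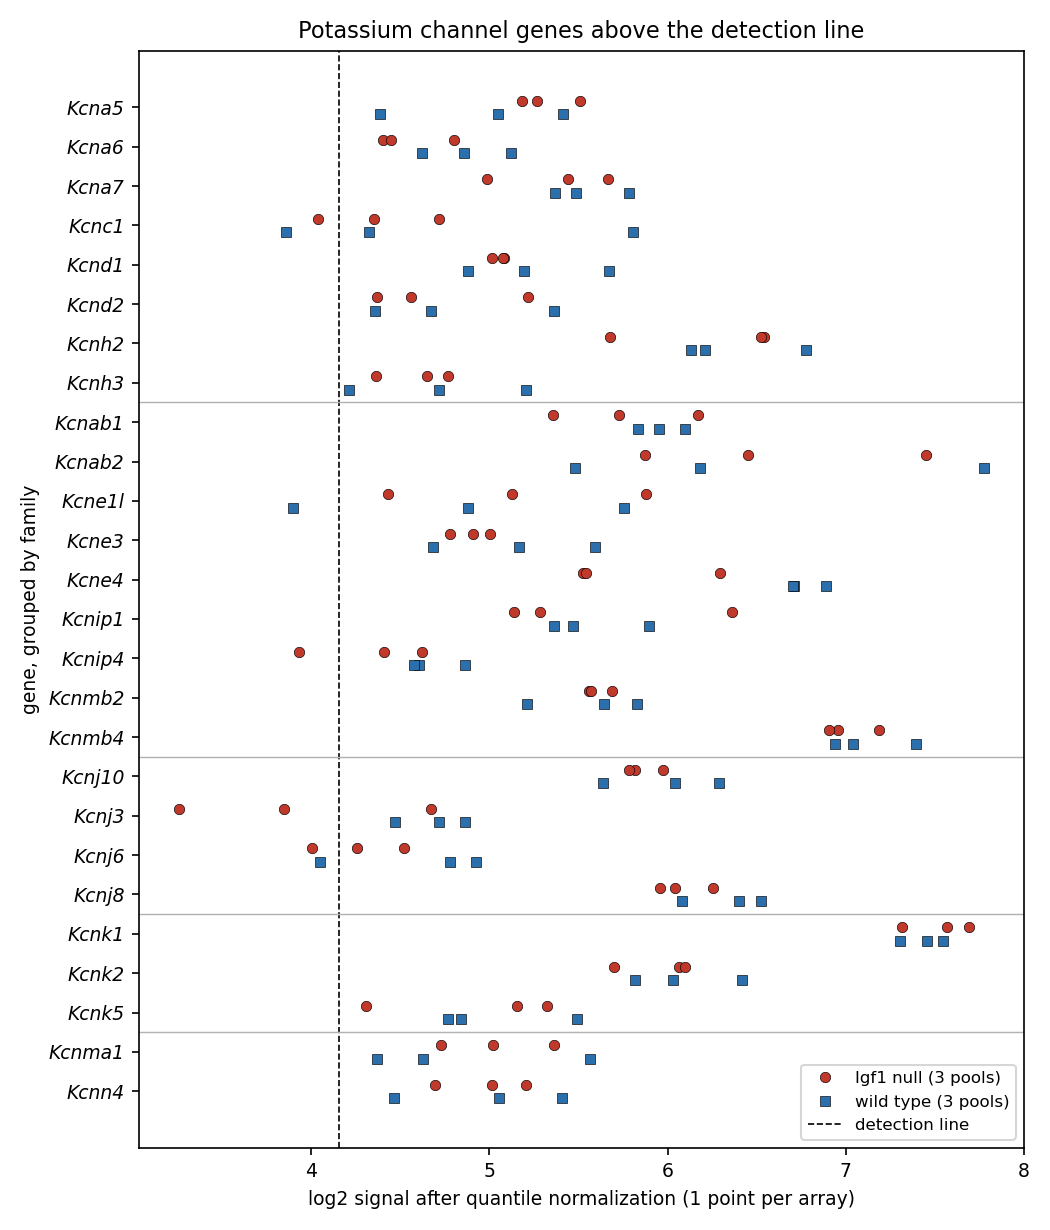
Log2 signal on each array of the 26 potassium channel genes above the detection line (dashed, 4.15), with Igf1 null arrays as circles above wild type arrays as squares and families separated by grey lines. In 25 of the 26 genes the arrays of the genotypes overlap, the exception being Kcne4.

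No potassium channel gene passed the test for a genotype difference. With limma, 0 of 62 members and 0 of 12393 genes (0%) had an adjusted p under 0.05, and the smallest adjusted p among the members was 0.859. At an unadjusted p under 0.05 there were 5 members, Kcnq5, Kcnh7, Kcnip2, Kcne4 and Kcnmb1, or 5 of 62 beside 616 of all genes (4.97%). The arrays of the genotypes did not overlap for 5 members that were lower in Igf1 null (Kcne4, Kcnq5, Kcnh7, Kcnmb1 and Kcnk4), where the background was 4.99% of all genes. They did not overlap for 1 member that was higher, Kcnip2, where the background was 5.58%. Of these 6 genes Kcne4 alone was above the detection line.

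Kcne4 encodes a single-span subunit that inhibits several voltage-gated channels, Kcnq1 among them, when expressed with them. It read 5.53, 5.54 and 6.29 in Igf1 null and 6.71, 6.89 and 6.70 in wild type. Each Igf1 null array was below each wild type array, and Igf1 null replicate 3 was the nearest to wild type. The difference was -0.98 ± 0.24, with an interval from -1.59 to -0.37, which is a ratio of 0.507 of Igf1 null to wild type. Its unadjusted p in limma was 0.00851 and its adjusted p was 0.888, so it did not pass the test, and an exact permutation test of 3 against 3 arrays cannot go below 0.1. Across the alternative settings the difference ran from -1.23 to -0.68, and the smallest adjusted p was 0.271, without Igf1 null replicate 3. Kcne4 had 1 single-gene probe set, so no second reading was available. Endothelial markers were lower by sign in 7 of 7 genes, with list means from 6.71 to 6.91 in Igf1 null and from 6.93 to 7.10 in wild type, and 9 of 9 cartilage markers were lower as well, with list means from 10.08 to 10.65 in Igf1 null and from 10.55 to 11.03 in wild type. Bone markers were lower by sign in 5 of 5 genes, with list means from 8.03 to 8.91 in Igf1 null and from 8.84 to 9.06 in wild type. Erythroid markers were lower in 4 of 5, with list means from 3.15 to 3.92 in Igf1 null and from 3.59 to 4.65 in wild type. Each Igf1 null array was below each wild type array in 3 of 5 erythroid and 2 of 5 bone markers. The same held for 2 of 9 cartilage and 1 of 7 endothelial markers, where the background was 4.99% of all genes. Other lists went the other way, with 11 of 14 hair cell markers and 7 of 9 supporting cell markers higher by sign. Of these, 3 hair cell and 2 supporting cell markers had each Igf1 null array above each wild type array, beside 5.58% of all genes. None of these markers passed the threshold, and their part in the Kcne4 value was not tested.

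The other members with the smallest p were read below the line. Kcnq5, a channel of the M-current family, read 3.30, 3.07 and 3.72 in Igf1 null and 4.34, 4.45 and 4.23 in wild type, with a difference of -0.98 ± 0.19 and an adjusted p of 0.859. Wild type arrays lay close to the detection line and Igf1 null arrays under it. With a pseudocount of 32, which damps low readings, the Kcnq5 difference was -0.30. Kcnh7, an ether-a-go-go channel, read -0.33, 0.27 and -0.63 in Igf1 null and 1.98, 1.05 and 1.30 in wild type, with a difference of -1.67 ± 0.34 and an adjusted p of 0.859. Kcnmb1, the beta subunit known from smooth muscle, read -0.24, 1.94 and 1.21 in Igf1 null and 4.06, 2.81 and 2.44 in wild type. Its difference of -2.13 ± 0.70 had an adjusted p of 0.974. Kcnk4, a stretch-sensitive leak channel, read -0.38, 1.76 and 1.49 in Igf1 null and 1.91, 2.70 and 2.98 in wild type. Kcnj2, a strong rectifier, read -0.86, -1.23 and -1.13 in Igf1 null and 0.46, -1.01 and 0.65 in wild type, with wild type replicate 2 inside the Igf1 null range. The readings of Kcnh7, Kcnmb1, Kcnk4 and Kcnj2 lie among those of tissue-foreign genes, whose median was 0.81.

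In the other direction Kcnip2, a calcium-binding partner of Kcnd channels, read 3.36, 3.08 and 2.92 in Igf1 null and 2.40, 2.02 and 1.70 in wild type. Each Igf1 null array was above each wild type array and all 6 were under the detection line. Its difference was 1.08 ± 0.22 with an adjusted p of 0.859. The difference was 0.17 with a pseudocount of 32 and 0.30 as the mean of its probe sets, and its second probe set differed by -0.47. Kcnd3, an A-type channel, read 2.14, 1.99 and 2.68 in Igf1 null and 2.29, 0.91 and 0.90 in wild type. Kcna3, known from lymphocytes, read 2.74, 2.31 and 2.43 in Igf1 null and 2.77, 1.76 and 1.56 in wild type. In both genes wild type replicate 1 was at the height of the Igf1 null arrays and the other wild type arrays were lower. Kcnu1, known from sperm, read 4.11, 4.09 and 4.50 in Igf1 null and 3.32, 4.56 and 3.32 in wild type. Kcnk3, an acid-sensitive leak channel, read 3.68, 5.18 and 2.41 in Igf1 null and -0.05, 4.04 and 2.67 in wild type. Kcnu1 and Kcnk3 overlapped between genotypes, and with Kcna5 these were the 6 members with the smallest p among those higher in Igf1 null.

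**Figure D3:**
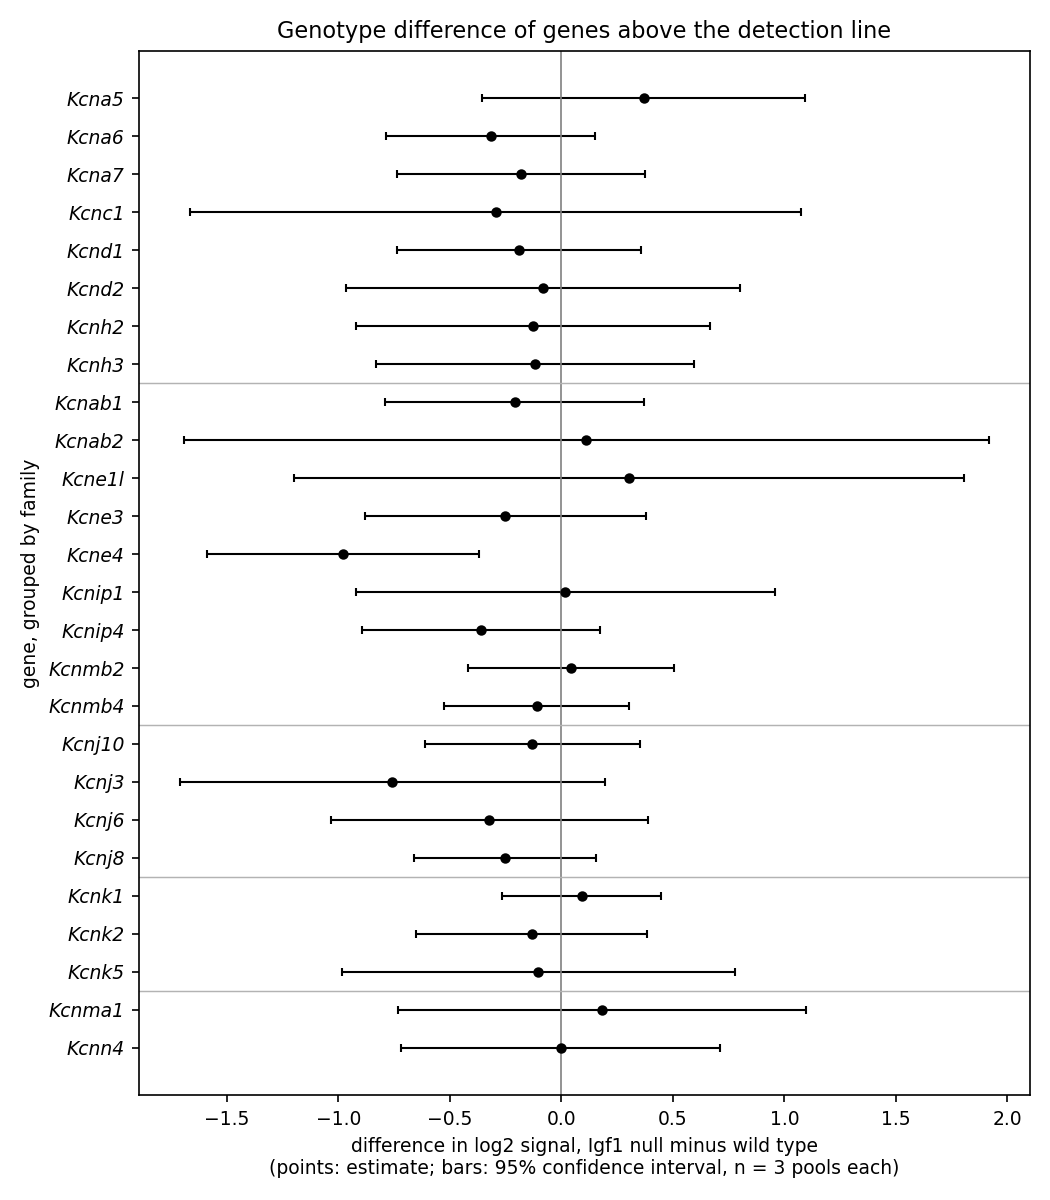
Difference in log2 signal, Igf1 null minus wild type, of the 26 potassium channel genes above the detection line, with bars for the 95% confidence interval and families separated by grey lines. The interval of Kcne4, from -1.59 to -0.37, lies below 0, and those of the other 25 genes include 0.

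More members were lower than higher in Igf1 null by sign, but the median changed sign when wild type replicate 2 alone was left out. Of the 62 members 20 were higher and 42 lower, for a median difference of -0.16, against 0.0056 for all genes. Above the line the split was 7 higher to 19 lower, and the median was -0.13. On the values as deposited, where the median of all genes shifts to -0.14, 12 members were higher and 50 lower, and their median was -0.39, and with median centring 18 were higher and 44 lower. Without wild type replicate 2 the members split into 32 higher and 30 lower, and their median was 0.021. With replicate 2 of both genotypes left out, 22 were higher and 40 lower, and the median was -0.11. With the mean of neuron markers as a covariate, 23 were higher and 39 lower, and the median was -0.14. No test was made of the list.

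**Figure D4:**
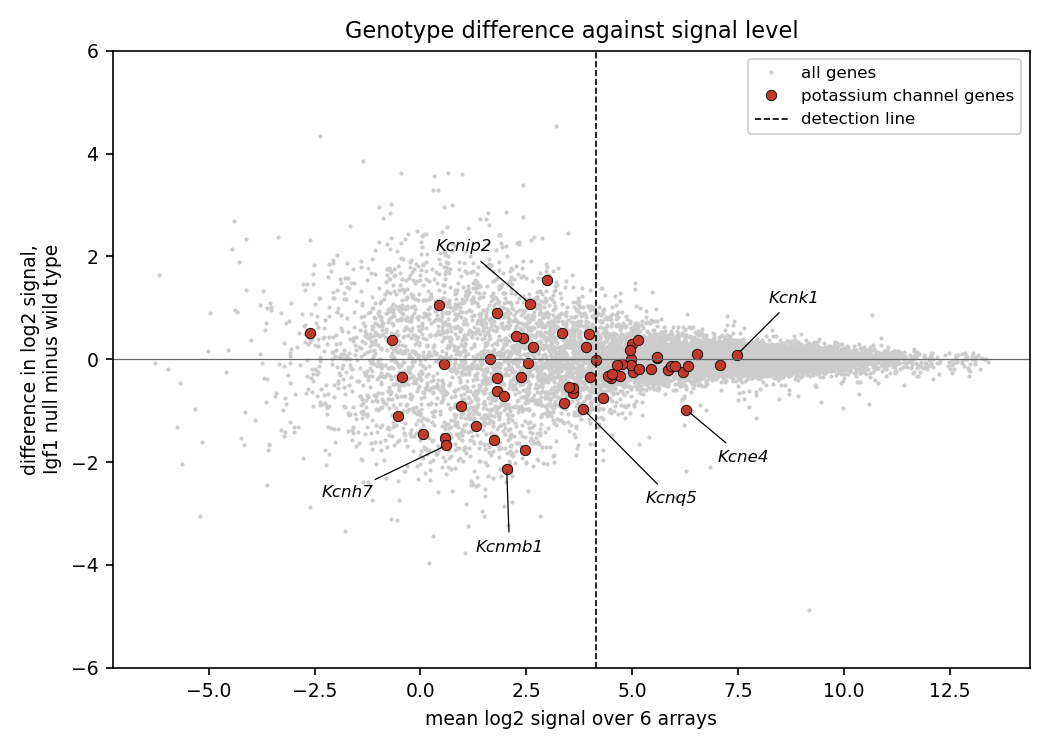
Difference in log2 signal, Igf1 null minus wild type, against mean log2 signal over 6 arrays, for all 12393 genes (grey) and the 62 potassium channel genes (red), with the detection line dashed at 4.15. Differences spread more widely to the left of the line, where Kcnq5, Kcnh7, Kcnmb1 and Kcnip2 lie, and Kcne4 at 6.28 lies to its right.

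Width of the intervals differed widely among the members and sets what could be seen. Standard errors ran from 0.14 to 1.50 over the 62 members with a median of 0.44, and had a median of 0.27 among those above the line and 0.84 among the rest. For all genes the median was 0.18, with 0.15 above the line and 0.74 among the rest. For Kcnab2 the interval ran from -1.69 to 1.92, and for Kcna1 from -3.75 to 3.04, so even a large difference in either gene was not detectable with these arrays.

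Replicate 2 of each genotype stood apart for many of the channels. It was the highest array of its genotype in both genotypes for 12 of the 26 members above the line, or 46.2%, beside a background of 15.9% of the genes above it. On the values as deposited this held for 19 of 26 members (73.1%) and 34.4% of genes, and with median centring for 12 members (46.2%) and 13.7% of genes. Kcnab2 read 6.45, 7.45 and 5.87 in Igf1 null and 5.48, 7.78 and 6.18 in wild type. Kcnc1 read 4.03, 4.72 and 4.35 in Igf1 null and 3.86, 5.81 and 4.32 in wild type. Kcnd2 read 4.56, 5.22 and 4.37 in Igf1 null and 4.36, 5.36 and 4.67 in wild type. In each of these genes replicate 2 was high whichever the genotype, and the difference between genotypes was smaller than the spread within them. The others were Kcna5, Kcnd1, Kcnip1, Kcnj3, Kcnj10, Kcnk2, Kcnk5, Kcnma1 and Kcnmb4. Under the line, Kcna1, a channel of axons, read 2.37, 5.80 and 3.30 in Igf1 null and 3.10, 6.50 and 2.92 in wild type. Kcnh1 read 0.98, 4.36 and 3.53 in Igf1 null and 3.04, 5.26 and 3.15 in wild type. Both were above the line on replicate 2 alone, in either genotype.

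Neuron markers moved with these arrays. Their list mean, over 14 measured genes, was 7.89, 8.36 and 7.53 in Igf1 null and 7.42, 8.99 and 7.57 in wild type, and replicate 2 was highest in both genotypes for 10 of the 14. Skeletal muscle markers did so for 0 of 10, with list means of 10.89, 10.22 and 9.21 in Igf1 null and 10.31, 9.02 and 10.88 in wild type. The pattern was not limited to neuron markers. It held for 3 of 7 markers of Schwann cells and glia, 3 of 7 of endothelium and 3 of 8 of intermediate cells and melanocytes. It held for 0 of 14 hair cell, 0 of 9 supporting cell and 0 of 9 cartilage markers. With the neuron marker mean as a covariate, a setting added after the data were seen, the standard error was 0.21 for Kcnab2, against 0.72 without it. It was 0.24 for Kcnc1, against 0.54 without it, and 0.094 for Kcnma1, against 0.36 without it. In all of these genes replicate 2 was highest in both genotypes, as it was in the covariate. Their smaller standard errors follow from that choice of genes and are not a test of neurons as the cause. No member passed the threshold with the covariate, and the Kcnma1 difference became 0.23 with an adjusted p of 0.873 in limma. Without both replicate 2 arrays 26 members were above the line, and 0 passed the test. Whether neurons account for the high readings of replicate 2 was not tested.

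**Figure D5:**
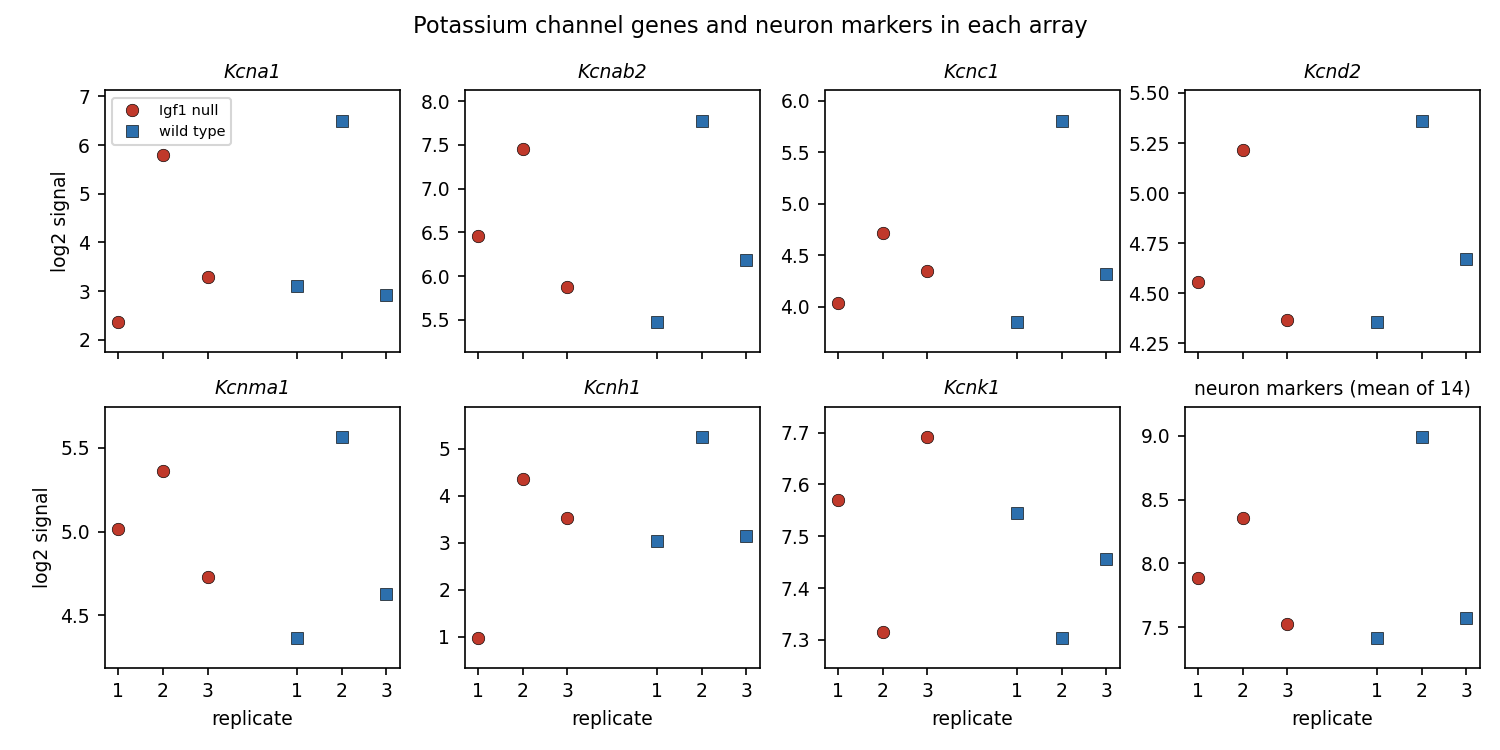
Log2 signal on each array, with Igf1 null replicates 1 to 3 as circles to the left of wild type replicates 1 to 3 as squares, for 7 potassium channel genes and for the mean of 14 neuron markers, each panel on its own axis that does not start at 0. Replicate 2 is the highest array of each genotype in Kcna1, Kcnab2, Kcnc1, Kcnd2, Kcnma1 and Kcnh1 and in the neuron marker mean, and the lowest of each genotype in Kcnk1.

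The 250 bases before the annotated start are shown for Kcnc1, Kcnd2 and Kcnj10, which share the replicate 2 pattern. They are also shown for Kcne4, the detected member whose genotypes did not overlap. Sequences are RefSeq's on GRCm38.p6, printed 5′ to 3′ on the gene's strand, here the + strand for all, and capitals mark GGGCGG or its reverse complement CCGCCC, the GC box, searched on both strands. The windows lie at chr7:46396218-46396467 (Kcnc1), chr6:21215096-21215345 (Kcnd2), chr1:172340960-172341209 (Kcnj10) and chr1:78816661-78816910 (Kcne4).
Kcnc1: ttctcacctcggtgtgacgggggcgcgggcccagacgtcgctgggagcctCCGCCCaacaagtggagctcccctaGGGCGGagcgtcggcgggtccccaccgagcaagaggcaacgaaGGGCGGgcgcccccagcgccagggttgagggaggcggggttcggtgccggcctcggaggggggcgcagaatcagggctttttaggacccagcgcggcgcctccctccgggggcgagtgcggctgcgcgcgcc
Kcnd2: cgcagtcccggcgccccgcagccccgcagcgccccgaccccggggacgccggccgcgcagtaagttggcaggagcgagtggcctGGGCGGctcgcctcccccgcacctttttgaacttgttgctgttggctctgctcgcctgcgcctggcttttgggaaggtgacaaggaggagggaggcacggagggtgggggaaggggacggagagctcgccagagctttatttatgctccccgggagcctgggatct
Kcnj10: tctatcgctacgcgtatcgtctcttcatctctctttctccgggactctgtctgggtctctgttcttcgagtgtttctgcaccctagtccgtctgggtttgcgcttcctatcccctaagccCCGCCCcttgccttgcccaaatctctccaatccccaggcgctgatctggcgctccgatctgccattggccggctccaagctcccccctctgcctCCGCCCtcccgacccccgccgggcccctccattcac
Kcne4: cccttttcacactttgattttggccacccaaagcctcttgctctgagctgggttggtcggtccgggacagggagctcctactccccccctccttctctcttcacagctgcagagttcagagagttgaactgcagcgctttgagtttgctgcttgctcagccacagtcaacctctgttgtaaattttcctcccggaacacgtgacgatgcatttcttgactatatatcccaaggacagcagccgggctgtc
Kcnc1 held 3 GC boxes and 74.4% G and C, Kcnd2 held 1 and 68.8%, Kcnj10 held 2 and 62.0%, and Kcne4 held 0 and 53.2%. Over windows of this length 32.7% of all 32851 held the motif, against 45.6% of the 68 windows of 50 matched members, with 41.7% for members above the line and 50.0% for the rest. TATAAA on the gene's strand was in 1.47% of the members' windows, against 7.59% of all. The members' windows were also richer in G and C, with a median of 58.8% against 52.4% for all windows. What this difference adds to the motif shares was not tested. A match is a run of letters and not a binding site.

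Several members neighbour each other in the genome, by the order of genes in the RefSeq table of GRCm38.p6, and some neighbours lay on different sides of the detection line. Kcna5, Kcna1 and Kcna6 follow one another on chromosome 6, where Kcna5 (5.13) and Kcna6 (4.71) had means above the line and Kcna1 (4.00) did not. Kcnj9 and Kcnj10 adjoin on chromosome 1, with Kcnj10 above the line at 5.92 and Kcnj9 at 0.07. Kcnip1 and Kcnmb1 adjoin on chromosome 11, with Kcnip1 above the line at 5.58 and Kcnmb1 at 2.04. Kcnj6 and Kcnj15 on chromosome 16, Kcna3 and Kcna2 on chromosome 3, and Kcnj5 and Kcnj1 on chromosome 9 were the remaining neighbours.

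Probe sets of 1 gene often disagreed. Of the 20 members with several probe sets, 48 in all, the differences had a single sign in 9, and 5 members had 2 or more probe sets above the line. The second probe set of Kcnd2, at a mean of 4.73, differed by 0.49, against -0.08 at the one used. The second probe set of Kcnj6, at 4.21, differed by 0.28, against -0.32 at the one used. That of Kcnk1, at 5.90, differed by -0.085, against 0.091 at the one used. In Kcnip1 and Kcnmb2 the sign was the same, with 0.45 and 0.26 at the second probe sets, against 0.017 and 0.043. None of the 90 probe sets passed the threshold over all 22626 probe sets.

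Genes that work with these channels also showed no genotype difference past the threshold. Of 17 genes of cochlear potassium cycling 12 were measured and 11 were above the line, with 3 higher and 9 lower in Igf1 null by sign, a median of -0.23 and 0 past the threshold. Atp1b3, a subunit of the sodium-potassium pump, read 8.76, 8.88 and 8.59 in Igf1 null and 9.04, 9.15 and 8.93 in wild type. Cldn11, the tight junction protein of strial basal cells, read 7.78, 7.72 and 7.58 in Igf1 null and 7.83, 7.94 and 7.90 in wild type. For both, each Igf1 null array was below each wild type array, with differences of -0.30 ± 0.12 and -0.20 ± 0.10. These were 2 of the 12 measured, where the background was 4.99% of all genes, and their adjusted p-values in limma were 0.997 and 0.999. Slc26a4, the anion exchanger pendrin, differed by 0.70 ± 0.35 with overlapping arrays. Of 19 channel partners with other names 15 were measured, with 8 higher and 7 lower by sign, a median of 3.5e-04 and 0 past the threshold. Their 3 smallest unadjusted p-values belonged to Cntn2, a cell adhesion molecule of axons, Abcc9 and Hcn2. Cntn2 differed by -3.05 ± 0.85 with an adjusted p of 0.888 in limma, read below the line on 5 of 6 arrays. It was the 1 gene of the 15 whose arrays did not overlap between genotypes.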

How the data were processed

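Biotin-labelled cRNA of each cochlear pool went onto its own Affymetrix array, per the labels' protocols. The authors deposited a log2 value for each of 22690 probe sets on every array, where base 2 is inferred from the range. How probes were summarised and background was corrected is not given in the sources used here. Because array medians differed, the arrays were quantile normalized, and 64 control probe sets were then left out. Probe sets were assigned to genes by GEO's platform annotation, and its symbols were replaced by those of the RefSeq table where that listed the gene. By this annotation 20380 probe sets had 1 gene, 691 had several and 1555 had none named, and genes were read from single-gene probe sets only. Genotypes were fitted with lmFit and eBayes of limma 3.58.1 (R 4.3.3), with genotype as the sole term and two-sided p-values, adjusted by Benjamini-Hochberg over all 12393 genes or 22626 probe sets, threshold 0.05. The fit was tested on simulated data.

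Every member was named by family, and those of known cochlear or muscle function and the 6 per direction with the smallest p were given by array; 3 partners per list were named by smallest p. Kcna1, Kcnab2, Kcnc1, Kcnd2, Kcnh1, Kcnj3, Kcnmb4 and Kcnn4 were given by array after their values were seen, and the genes whose promoters are printed were chosen likewise. Members and lists were chosen with earlier results of these data known. Alternatives were the deposited values, median centring, replicate or title number as a block, trended robust variance, array weights (statmod 1.5.0), the mean over probe sets, a filter at the 40th percentile, a pseudocount of 32, both title number 14 arrays left out, each array left out, and other detection lines. Leaving out both replicate 2 arrays and the neuron marker covariate were added after the data were seen. No 2 arrays held identical values. Same-numbered arrays of the genotypes had deviations that correlated by 0.022, 0.091 and 0.0074 over 12393 genes, so the replicate numbers were not taken to pair the samples.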

Additional observations from a re-analysis of the deposited data

How the results depend on the processing

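Under the 18 alternatives 0 potassium channel genes passed the threshold, and the smallest adjusted p in limma was 0.271. Between 1 and 12 members had an unadjusted p under 0.05. The 1 was of the 7 left by the 40th percentile filter, beside 347 of 7436 genes. The 12 of 62 came without both title number 14 arrays, beside 616 of 12393 genes. Over all genes the count past the threshold was 0 as well, except that leaving out 1 array at a time gave 0 to 1, the 1 without Igf1 null replicate 3. With the replicate number as a block the counts were 0 of 62 members, 0 genes and 0 probe sets, with 6, 716 and 1319 at an unadjusted p under 0.05. The number above the detection line was 34 with the 90th percentile of the tissue-foreign genes, 12 with their highest gene (Uox, 5.20), 2 with the median of all genes, 23 with the mean over probe sets and 26 to 28 with an array left out. Of 1061 recomputed differences of single members, none past the threshold before, 112 changed sign, and 26 members, 7 of them above the line, never did. Kcnj10 was 0.020 without wild type replicate 2, against -0.13 with all arrays. Kcnma1 changed sign in 3 settings and Kcnab2 in 5, while Kcne4, Kcnj8, Kcnq1, Kcnq5 and Kcnip2 did so in 0. The causes were not tested. With 3 arrays per genotype and no detection calls, low readings could not be told from background, and a miss of the threshold does not show equal levels.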
